A study of Mus musculus with 8 samples.

Results

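Chemokines are small secreted proteins that direct leukocyte movement, and their receptors are G protein-coupled receptors on the migrating cells. Protein-coding mouse genes with a Ccl, Cxcl, Xcl, Ccr, Cxcr or Xcr symbol followed by a digit were taken from RefSeq. This gave 54 genes, 38 for ligands and 16 for receptors. Of these, 53 had a place on an assembled chromosome, among 21521 protein-coding genes placed in the same way. Ccl21c had no such place and was not analysed here.

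H3K27ac, an acetyl mark on histone H3 that accompanies active promoters and enhancers, was profiled with ChIP-seq in C57BL/6 mouse CD8+ T cells taken from lymph node and spleen. Both treatment groups received antibodies to CD3 and CD28, which stimulate T cells through their antigen receptor. Cells were kept for 48 h with EnPGC-1, a compound that the labels class among PIPs, or with the vehicle DMSO. The labels name 2 H3K27ac samples and 1 input for EnPGC-1, and 2 H3K27ac samples, 2 IgG samples and 1 input for DMSO. The values used were 1 deposited list of acetylated intervals per treatment on mm10. A spread between replicates could not be measured, no test between treatments was made, and sequencing depth is unknown. A difference below is therefore a difference between 2 lists.

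Chemokine names follow the spacing of conserved cysteines, which separates the CC, CXC and XC families, and receptors are named for the family they bind. Naive T cells circulate through lymphoid organs, and after stimulation through the antigen receptor they switch to receptors for inflamed tissue, among them CXCR3 and CXCR6. Activated CD8+ T cells are also a source of ligands, chiefly CCL3, CCL4, CCL5 and XCL1, which attract other T cells, phagocytes and dendritic cells. Many ligand genes arose by duplication and still lie side by side.

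The EnPGC-1 list was much larger than the DMSO list, and the chemokine genes have to be read against that. It held 253423 distinct intervals over 165.2 Mb, against 81522 intervals over 41.3 Mb in the DMSO list, a covered-base ratio of 4.00. When the EnPGC-1 list was reduced to its 81522 highest-scoring intervals, so that both lists held equal numbers, the ratio was 1.65. Of the CD8 T cell markers, 9 of 9 held an EnPGC-1 interval and 9 of 9 a DMSO interval in the gene body and 20 kb on each side, as did 94.6% and 81.5% of all protein-coding genes, so these counts are near the background. Markers of other cells held intervals too. An EnPGC-1 interval lay at 5 of 5 B cell, 6 of 6 myeloid, 3 of 3 platelet, 2 of 2 CD4 and Treg and 2 of 3 NK markers, and a DMSO interval at 4, 5, 3, 2 and 1 of them. Median window coverage by EnPGC-1 and by DMSO intervals was 25.9% and 4.22% for B cell markers, 8.85% and 2.88% for myeloid markers, 22.9% and 3.97% for platelet markers, 19.5% and 4.64% for CD4 and Treg markers, 1.66% and 0% for NK markers and 11.7% and 1.80% for CD8 T cell markers. Of these markers, Klrd1 had no interval in either list, and Itgam, Ms4a1 and Ncr1 had none in the DMSO list. The part of other cells in the values below was not tested.

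Within the gene body and 20 kb on each side, 49 of the 53 chemokine and receptor genes held an EnPGC-1 interval (92.5%), against 94.6% of all protein-coding genes. A DMSO interval was present at 30 of the 53 (56.6%), against 81.5% of all genes. In these windows the shortfall in the DMSO list lay with the ligands: 17 of 37 ligand genes (45.9%) and 13 of 16 receptor genes (81.2%) held a DMSO interval. The 37 ligands include Ccl21b, Ccl21d and Ccl27b, whose lack of intervals cannot be read, as given below. Under other settings receptors fell short too. At or above the median score 50% of receptors held one, against 73.6% of all genes, and with 5 kb flanks 50% against 70.3%. Ligands were at 32.4% under both settings. With 50 kb flanks receptors were nearer to all genes, at 87.5% against 90.1%. Among the 11576 genes of at most 20 kb the share with a DMSO interval was 75.3%, and among the 49 members of that length 55.1%. The median gene length in these sets was 6.49 kb and 4.13 kb. The part of gene length in the shortfall was not tested. Coverage was low in both lists. The median window of a member was covered to 3.92% by EnPGC-1 and to 0.702% by DMSO intervals, against 8.46% and 2.02% for all genes. For at least 22 of the 53 members, 14 ligands and 8 receptors, the window also holds a protein-coding gene that is no member, and intervals there cannot be assigned to 1 gene.

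The direction was uniform. All 49 marked members had more bases covered with EnPGC-1, none had more with DMSO, and 4 had no interval in either list. Over all genes, coverage was higher with EnPGC-1 at 93.5%, so the members' 92.5% is near that background. With equal numbers of intervals the direction was no longer uniform: an interval was found in the EnPGC-1 list at 39 members and in the DMSO list at 30, and 3 members were left with a DMSO interval alone. Over all genes, 83.7% and 81.5% were then marked. A DMSO interval alone was left at 5.66% of members and at 6% of all genes, so that count is near the background.

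**Figure D1:**
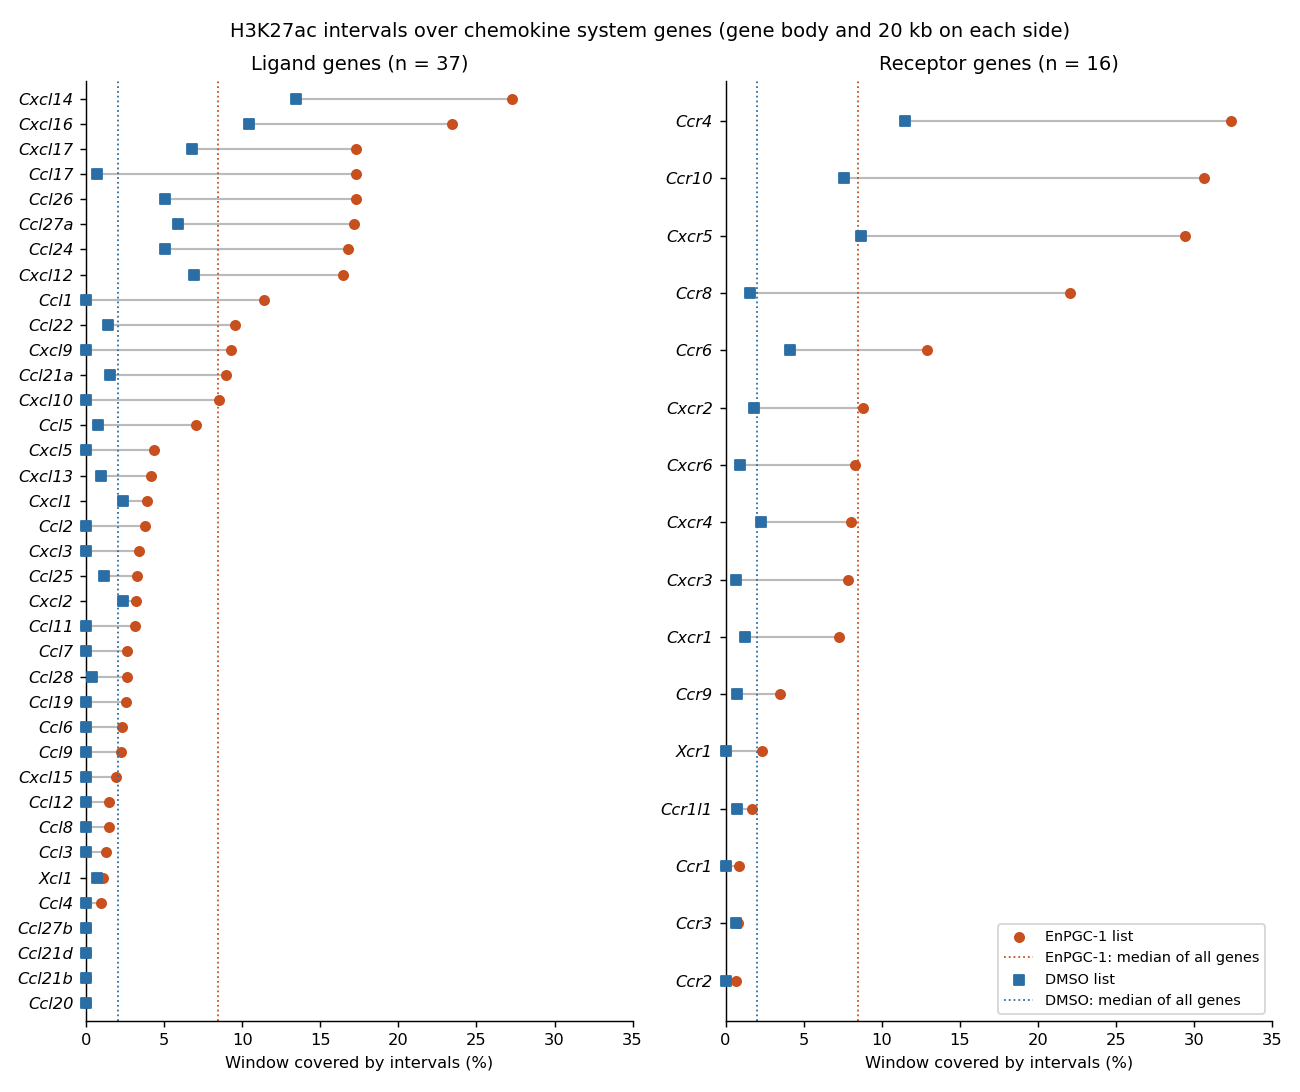
Percent of each gene's window (gene body and 20 kb on each side) covered by H3K27ac intervals with EnPGC-1 and with DMSO, for the 53 placed chemokine and receptor genes. Ccr4 has the highest EnPGC-1 value at 32.3%, and 4 ligand genes sit at 0 in both lists.

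Among the receptors, the 3 largest differences between the lists belonged to Ccr4, Cxcr5 and Ccr10. Ccr4, the receptor for CCL17 and CCL22 on skin-homing and type 2 helper T cells, had 24 intervals over 17844 bases in the EnPGC-1 list and 14 intervals over 6342 bases in the DMSO list. All 14 DMSO intervals there shared at least 1 base with the EnPGC-1 list. The Ccr4 window also holds 2 other protein-coding genes. Cxcr5, which brings lymphocytes to B cell follicles, had 15 intervals over 16094 bases against 8 over 4755. Ccr10, a receptor of skin- and mucosa-homing lymphocytes, had 18 over 13019 bases against 5 over 3230. Other protein-coding genes in these windows number 1 for Cxcr5 and 4 for Ccr10.

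Cxcr3, Cxcr6 and Cxcr4, receptors known from activated CD8+ T cells, were covered less densely than these 3. Cxcr3, the receptor for the interferon-induced ligands CXCL9 and CXCL10, had 5 EnPGC-1 intervals over 3344 bases and 1 DMSO interval over 299 bases. The DMSO interval lay inside a 1757 bp EnPGC-1 interval over the 3′ end of the gene, chrX:101731247-101733003, so the same spot was listed in both treatments and was wider with EnPGC-1. Cxcr6, the receptor for CXCL16 that marks tissue-resident and effector T cells, had 6 intervals over 3742 bases against 1 over 431. Most of those EnPGC-1 bases came from 1 interval of 2117 bp beyond the gene, chr9:123828236-123830352, and the Cxcr6 window overlaps that of Ccr9.

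Cxcr4, the receptor for CXCL12 that retains cells in bone marrow, had 5 EnPGC-1 intervals over 3548 bases and 2 DMSO intervals over 1006 bases. Both DMSO intervals were overlapped in the EnPGC-1 list. The widest Cxcr4 interval, 1504 bp at chr1:128590795-128592298, was in the EnPGC-1 list alone and ended at the base next to the start site. Ccr8, a receptor of regulatory and skin-resident T cells, had 12 intervals over 9425 bases against 2 over 657, a ratio of 14.3, in a window with 1 other protein-coding gene. Ccr6, the CCL20 receptor of type 17 T cells, had 15 over 8053 bases against 4 over 2592. The direction at Ccr6 depended on the filter. With equal numbers in both lists, which removes low scores from the EnPGC-1 list alone, 290 bases were covered with EnPGC-1 and 2592 with DMSO. With each list at or above its own median score, the values were 2451 and 2141.

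Several inflammatory CC receptors were nearly bare in both lists. Ccr2, the monocyte receptor for CCL2, had 1 interval over 309 bases in the EnPGC-1 list and none in the DMSO list, and Ccr1 had 1 over 407 bases and none. Xcr1, a receptor of cross-presenting dendritic cells, had 2 over 1156 bases and none. Ccr3, the eosinophil receptor for eotaxins, had 442 bases against 354, which at 88 bases was the smallest difference of a marked member. Ccr9, the gut-homing receptor, had 6 intervals over 1970 bases against 1 over 431. That single DMSO interval is the one counted for Cxcr6.

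The ligands that CD8+ T cells are known to make differed widely. Ccl3 and Ccl4 share 1 EnPGC-1 interval of 524 bases and had no DMSO interval. Xcl1, the ligand of XCR1, had 1 interval of 473 bases against 1 of 309, and the pair overlapped. Ccl5 had 7 intervals over 3159 bases against 1 over 336, and here the lists marked different places. The DMSO interval, chr11:83527938-83528273, lay within Ccl5 and met no EnPGC-1 interval, and the only EnPGC-1 interval touching the gene, chr11:83530262-83530769, lay over its edge at the higher coordinate. Ccl1, the CCR8 ligand made by activated T cells, had 9 EnPGC-1 intervals over 4915 bases and none in the DMSO list.

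Among ligands made mainly by other cells, several were covered more widely. Ccl17 and Ccl22, the CCR4 ligands of dendritic cells, are neighbours on chromosome 8. Ccl17 had 15 EnPGC-1 intervals over 7375 bases and 1 DMSO interval over 291 bases, a ratio of 25.3 that rests on that 1 interval. With equal numbers of intervals Ccl17 had 1129 bases against 291. Ccl22 had 7 intervals over 4350 bases against 2 over 645. For both the CCR4 and the CCR8 axis, ligand and receptor genes alike had more EnPGC-1 than DMSO bases, as did nearly all genes. The interferon-induced Cxcl9 and Cxcl10 had 9 intervals over 4325 bases and 8 over 3598 in the EnPGC-1 list, partly the same ones, and none in the DMSO list.

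Cxcl14, Cxcl16 and Cxcl12 were the ligands with the most covered bases in DMSO-treated cells. Cxcl14, a CXC ligand of epithelia, had 22 EnPGC-1 intervals over 13148 bases and 12 DMSO intervals over 6476 bases. Cxcl16, the CXCR6 ligand, had 12 over 10699 bases against 7 over 4753, in a window with 3 other protein-coding genes. Cxcl12, the CXCR4 ligand of stromal cells, had 12 over 8707 bases against 7 over 3667. Ratios at these genes, from 2.03 to 2.37, were below the 3.66 of all ligand loci. Cxcl14 turned round with equal numbers of intervals, with 3950 bases covered with EnPGC-1 and 6476 with DMSO.

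In all, 19 members held EnPGC-1 intervals and no DMSO interval (35.8%), against 13.5% of all genes, and none showed the opposite. They were 16 of the 37 ligands and 3 of the 16 receptors. The ligands were Ccl1, Ccl2, Ccl3, Ccl4, Ccl6, Ccl7, Ccl8, Ccl9, Ccl11, Ccl12, Ccl19, Cxcl3, Cxcl5, Cxcl9, Cxcl10 and Cxcl15, and the receptors Ccr1, Ccr2 and Xcr1. With equal numbers of intervals the corresponding shares were 22.6% of members, 12 in number, and 8.14% of all genes. The shares were closest without intervals under 500 bases, at 35.8% of members and 25.7% of all genes. Neighbours among these genes share windows and intervals, so they are not independent instances. Of the 30 members with a DMSO base, 13 had at least 4 times as many EnPGC-1 bases (43.3%), against 43.9% of all such genes, which is no departure from the background. They were 6 of 17 ligands and 7 of 13 receptors.

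Members without any interval were Ccl20, the CCR6 ligand, and Ccl21b, Ccl21d and Ccl27b. Ccl21b, Ccl21d and Ccl27b lie in a stretch of chromosome 4 that holds near-identical copies of the Ccl21 and Ccl27 genes, where short reads often cannot be placed. The whole 792.396 kb from Ccl21d to Ccl27b had no interval in either list. How reads were placed there was not tested, so the absence says nothing of acetylation at these 3 genes. They stay in the counts of genes, start sites and promoters, and so lower the shares of members with an interval. Ccl21a and Ccl27a, outside that stretch, had 9 intervals against 1 and 11 against 5.

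Windows of neighbouring genes overlap, so they were joined into 37 loci, 25 with ligands and 12 with receptors, and none held both. In total, 294 EnPGC-1 intervals and 95 DMSO intervals lay in these loci, over 8.63% and 2.25% of their bases. Receptor loci were covered to 11.9% by EnPGC-1 and to 2.94% by DMSO intervals, and ligand loci to 7.02% and 1.92%. The ratio between the lists was 4.05 in receptor loci and 3.66 in ligand loci, both close to the 4.00 of the whole lists. Without Ccr4, Ccr10 and Cxcr5 the receptor loci were covered to 6.80% and 1.19%, at a ratio of 5.71. These 3 loci had the highest EnPGC-1 coverage of all loci and were left out after their values were seen. A lower level therefore had to follow. The most covered ligand loci were kept, so the reduced receptor level cannot be compared with the ligand level on equal terms. Without the 3 bare copies on chromosome 4 the ligand loci were covered to 8.20% and 2.24%. EnPGC-1 intervals had a mean of 711 covered bases in receptor loci, or 609 without the same 3 loci, against 590 in ligand loci. The DMSO means were 513 in receptor loci, or 480 without the 3, and 520 in ligand loci.

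**Figure D2:**
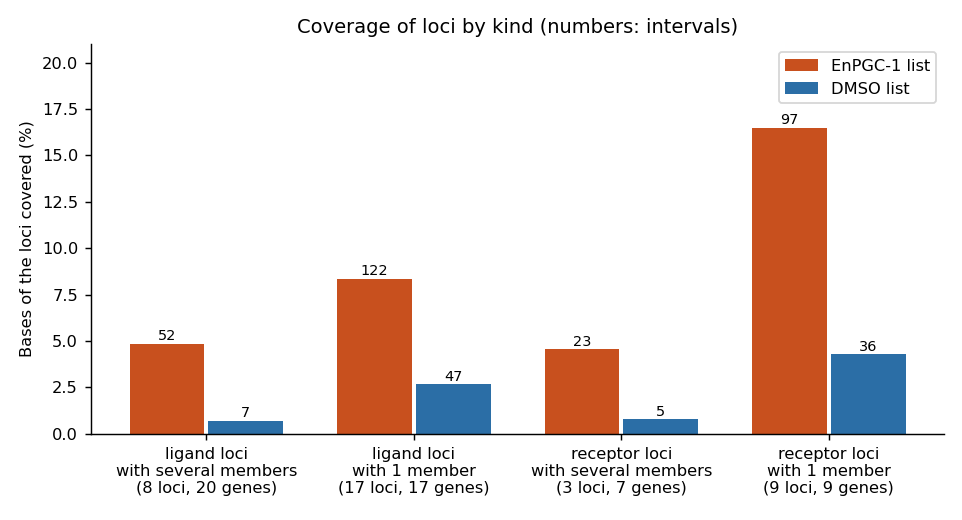
Percent of bases covered by EnPGC-1 and DMSO intervals in ligand and receptor loci, split into loci that hold several member genes and loci with a single one. Single receptor loci reach 16.5% against 4.28%, and loci with several members lie below 5% in both lists.

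Coverage also differed between loci with several members and single ones. The 8 ligand loci with several members, which hold 20 genes, were covered to 4.83% by EnPGC-1 and 0.685% by DMSO intervals, and 5 of the 8 had no DMSO interval. The 17 single ligand loci were covered to 8.36% and 2.68%. Receptor loci were covered to 4.55% and 0.787% where they held several members, 3 in number, and to 16.5% and 4.28% in the 9 single ones. The 6 single receptor loci other than Ccr4, Ccr10 and Cxcr5 were covered to 8.94% and 1.58%. Ratios were 7.06 in ligand loci with several members against 3.12 in single ones, and 5.79 against 3.86 for receptors. They rest on few DMSO intervals, 7 in the ligand and 5 in the receptor loci with several members. With equal numbers of intervals the ratios were 3.11 against 1.25 for ligands and 1.69 against 1.73 for receptors, so the receptor difference was gone.

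3 longer stretches of neighbouring genes, which take in both kinds of locus, are drawn as maps. The Ccl2 to Ccl1 cluster on chromosome 11 holds the monocyte chemoattractants Ccl2, Ccl7, Ccl8 and Ccl12, the eotaxin Ccl11, and Ccl1. It spans 184.236 kb with flanks and had 18 EnPGC-1 intervals over 4.39% of its bases and no DMSO interval. The Ccl5 to Ccl4 cluster on the same chromosome, 178.906 kb, had 11 EnPGC-1 intervals over 2.90% and 1 DMSO interval over 0.188%. The receptor cluster from Ccr9 to Ccr2 on chromosome 9, 381.93 kb, had 18 EnPGC-1 intervals over 2.64% and 3 DMSO intervals over 0.302%. All 3 were covered less than the median window over all genes, in both lists.

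The other loci with several members lie on chromosomes 1, 4 and 5. Cxcr2 and Cxcr1, receptors of neutrophils, had 7 intervals over 4166 bases against 2 over 850, and 6 over 3120 against 1 over 527. Cxcl9 and Cxcl10 together had 13 EnPGC-1 intervals over 5797 bases, and the neutrophil-attracting group of Cxcl5, Cxcl3 and Cxcl15 had 5 over 2446, with no DMSO interval at either locus. Next to that group, Cxcl1 and Cxcl2 had 3 EnPGC-1 intervals over 1641 bases and 2 DMSO intervals over 991 bases. With equal numbers of intervals this locus had 667 bases against 991. Ccl26 and Ccl24, eotaxins that act on CCR3, were the best covered ligand pair, with 11 over 8903 bases against 4 over 2190. Ccl19 and Ccl21a, which guide naive T cells and dendritic cells into lymph nodes, had 9 over 3687 bases against 1 over 631, all of them within the Ccl21a window.

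The remaining members are single loci. Cxcl17, a mucosal ligand, had 12 intervals over 9140 bases against 7 over 3571, and Ccl27a, the CCR10 ligand of skin, had 11 over 7679 against 5 over 2639, in a window with 3 other protein-coding genes. Cxcl13, the CXCR5 ligand of follicles, had 4 over 1841 bases against 1 over 428. Ccl25, the CCR9 ligand of gut and thymus, had 5 over 2441 against 2 over 881. Ccl28, a mucosal CCR10 ligand, had 5 over 1828 against 1 over 253, and held the highest score of any interval in the loci, 14.6 in the EnPGC-1 list.

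**Figure D3:**
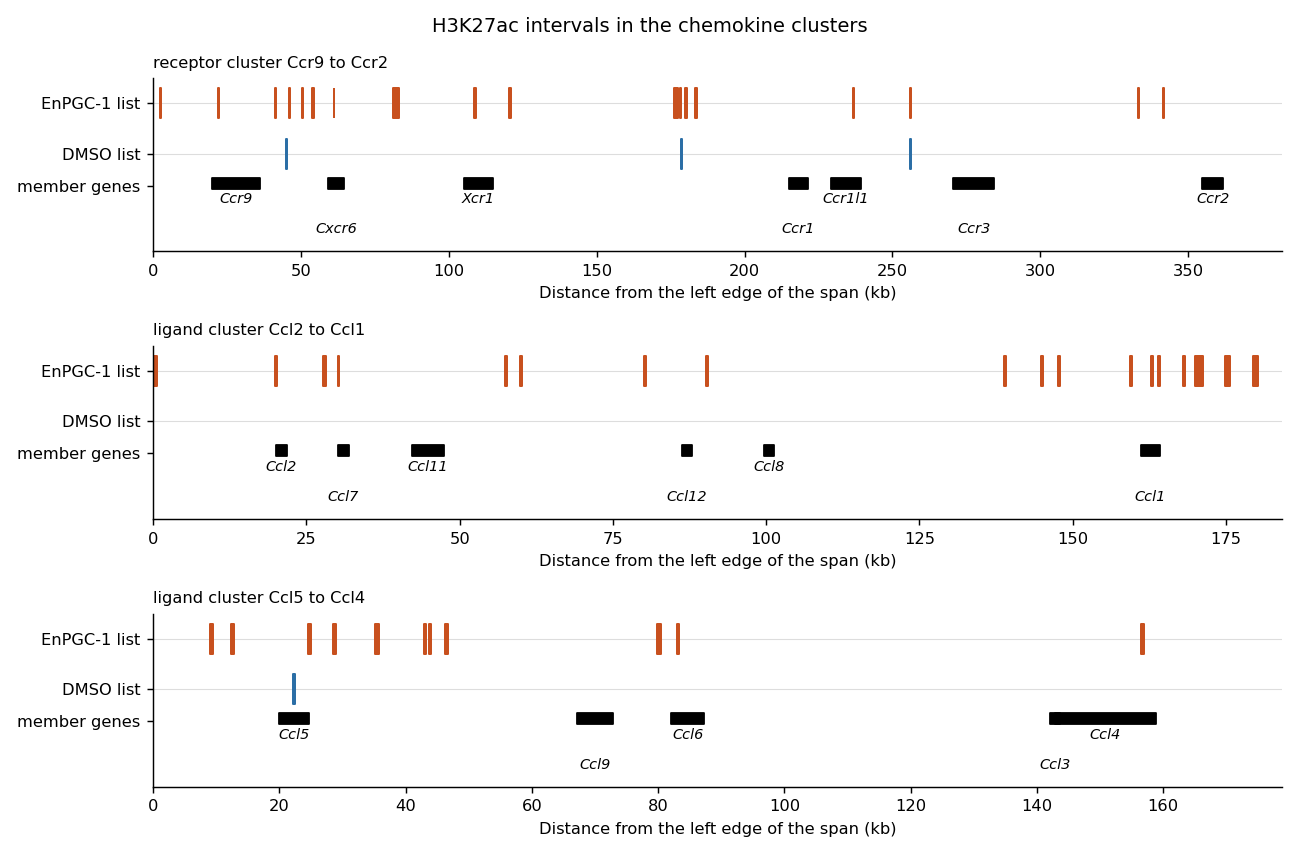
Intervals of the EnPGC-1 list (upper row) and the DMSO list (lower row) along 3 chemokine gene clusters, plotted by distance from the left end of each span, with the genes drawn beneath. The Ccl2 to Ccl1 span has 18 EnPGC-1 intervals and 0 DMSO intervals, and narrow intervals are drawn at a minimum line width.

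The overlap of the lists in these loci depended on how it was counted. Of 95 DMSO intervals, 77 shared at least 1 base with one from EnPGC-1-treated cells (81.1%, exact binomial 95% interval 71.7 to 88.4), against 73.7% over the whole list. It was 37.9% where at least 50% of both intervals had to be shared, 39.6% with each list at or above its median score, and 33.7% with equal numbers of intervals. By the 1-base rule the share was 90.2% in receptor loci, 37 of 41, and 74.1% in ligand loci, 40 of 54. Without Ccr4, Ccr10 and Cxcr5 it was 71.4% in receptor loci, 10 of 14, with an exact 95% interval of 41.9 to 91.6. These loci were left out after their values were seen. Ligand loci were not reduced in the same way, so no order of the kinds follows. Conversely, 72 of the 294 EnPGC-1 intervals met one from DMSO-treated cells (24.5%), against 23.1% over the whole list. Most intervals did not lie on the member itself. In ligand loci 39 of 174 EnPGC-1 intervals and 13 of 54 DMSO intervals lay in a member gene. In receptor loci the counts were 31 of 120 and 11 of 41. Another 31 of the 174 and 12 of the 54 lay inside a gene that is no member, as did 31 of the 120 and 17 of the 41.

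Where a promoter entry was matched, start sites of these genes were acetylated less often than those of all genes. RefSeq promoters were matched for 41 of the 53 placed members. An EnPGC-1 interval lay within 1 kb of a start site at 14 of the 41 (34.1%), against 67.3% of the 17274 genes with a promoter entry. A DMSO interval did so at 4 of the 41 (9.76%), against 33.5%. The 14 were the ligands Ccl1, Ccl17, Ccl22, Cxcl1, Cxcl3, Cxcl10, Cxcl12, Cxcl13 and Cxcl14 and the receptors Ccr4, Ccr6, Ccr8, Cxcr3 and Cxcr4. In the DMSO list they were Ccl22, Ccl25, Cxcl1 and Cxcl14, all ligands. None of the 14 receptors with a promoter entry had a DMSO interval within 1 kb of the start. Members without an entry are not in these counts. Among them, an EnPGC-1 interval crossed an edge of the gene at Ccl2, Ccl5, Ccl7, Ccl24, Cxcl5, Cxcl16 and Cxcr5. None did so at Ccl4, Ccl11, Ccl26, Cxcl17 and Ccr10. The share over all placed members is therefore not known.

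6 of these promoters are shown because they run from a promoter acetylated in both lists, Cxcl1, to one reached only after its start, Cxcr4. Sequences are from RefSeq, build GRCm38.p6, 5′ to 3′ along the gene, from 250 bases before to 50 after the start, with capitals for bases inside an EnPGC-1 interval.
Cxcl1, chr5:90890995-90891294, plus strand: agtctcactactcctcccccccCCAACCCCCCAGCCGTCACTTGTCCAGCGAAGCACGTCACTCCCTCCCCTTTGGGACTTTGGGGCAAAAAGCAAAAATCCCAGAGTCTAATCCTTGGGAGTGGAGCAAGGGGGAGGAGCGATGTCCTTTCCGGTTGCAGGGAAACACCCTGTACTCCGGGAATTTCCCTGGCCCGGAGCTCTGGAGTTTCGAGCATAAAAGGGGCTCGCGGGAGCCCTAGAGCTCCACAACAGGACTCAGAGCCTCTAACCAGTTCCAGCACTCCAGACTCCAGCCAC
Cxcl14, chr13:56296502-56296801, minus strand: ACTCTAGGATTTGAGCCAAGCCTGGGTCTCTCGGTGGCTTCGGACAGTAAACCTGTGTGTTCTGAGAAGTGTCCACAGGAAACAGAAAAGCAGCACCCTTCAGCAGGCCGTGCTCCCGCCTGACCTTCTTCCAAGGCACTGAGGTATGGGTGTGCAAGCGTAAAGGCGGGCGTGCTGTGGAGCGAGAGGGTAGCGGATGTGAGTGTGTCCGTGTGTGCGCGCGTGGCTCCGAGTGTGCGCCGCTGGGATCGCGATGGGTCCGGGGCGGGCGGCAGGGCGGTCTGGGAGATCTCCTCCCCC
Cxcl12, chr6:117168285-117168584, plus strand: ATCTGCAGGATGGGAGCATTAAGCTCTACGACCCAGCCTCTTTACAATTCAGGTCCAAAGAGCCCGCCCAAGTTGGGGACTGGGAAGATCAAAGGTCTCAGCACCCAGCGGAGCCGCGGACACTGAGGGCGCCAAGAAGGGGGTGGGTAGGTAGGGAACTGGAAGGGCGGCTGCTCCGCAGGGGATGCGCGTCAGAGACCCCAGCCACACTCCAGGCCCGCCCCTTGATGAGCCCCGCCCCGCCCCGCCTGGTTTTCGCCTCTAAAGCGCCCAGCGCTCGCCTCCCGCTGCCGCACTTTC
Ccl1, chr11:82179763-82180062, minus strand: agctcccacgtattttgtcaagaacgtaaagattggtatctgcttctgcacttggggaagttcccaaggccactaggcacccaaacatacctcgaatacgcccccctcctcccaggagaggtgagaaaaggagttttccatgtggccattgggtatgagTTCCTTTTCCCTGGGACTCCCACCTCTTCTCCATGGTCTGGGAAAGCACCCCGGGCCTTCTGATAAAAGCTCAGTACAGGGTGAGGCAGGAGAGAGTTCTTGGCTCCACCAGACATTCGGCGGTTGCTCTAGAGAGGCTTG
Ccr4, chr9:114496495-114496794, minus strand: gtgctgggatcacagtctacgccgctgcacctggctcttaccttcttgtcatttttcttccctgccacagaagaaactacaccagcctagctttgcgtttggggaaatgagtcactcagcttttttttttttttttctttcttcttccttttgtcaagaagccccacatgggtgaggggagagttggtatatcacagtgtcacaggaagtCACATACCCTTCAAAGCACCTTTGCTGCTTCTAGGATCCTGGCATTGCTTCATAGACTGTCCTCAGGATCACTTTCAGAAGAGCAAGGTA
Cxcr4, chr1:128592250-128592549, minus strand: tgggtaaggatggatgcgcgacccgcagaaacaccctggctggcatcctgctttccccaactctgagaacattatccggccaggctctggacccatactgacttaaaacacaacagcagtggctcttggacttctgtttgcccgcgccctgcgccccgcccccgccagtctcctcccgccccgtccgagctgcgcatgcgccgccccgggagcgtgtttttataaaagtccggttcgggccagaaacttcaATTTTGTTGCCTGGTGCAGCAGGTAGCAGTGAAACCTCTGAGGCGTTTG

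Cxcl1, a neutrophil attractant that acts on CXCR2, was marked at its promoter in both treatments, with 278 of the promoter's 300 bases inside an EnPGC-1 interval and all 300 inside a DMSO interval. Cxcl14 had 300 and 146 bases inside. Cxcl12 had all 300 inside an EnPGC-1 interval and none inside a DMSO interval, the nearest of which lay 4703 bases from its start. The Ccl1 promoter had 141 and none, Ccr4 90 and none, and Cxcr4 49 and none, and in Cxcr4 these were the bases after the start. CpG dinucleotides, which are dense in broadly active promoters, numbered 20 in the Cxcl12 sequence, 22 in Cxcl14, 20 in Cxcr4 and 10 in Cxcl1, against 7 in Ccl1 and 3 in Ccr4. The 14 member promoters with an EnPGC-1 interval within 1 kb had a median of 9 CpGs, and the 34 without had 3.5. The median over all 32851 promoters was 7.

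3 motifs were looked for on both strands in the 48 promoters of the members. TATAAA, the core of the TATA box, was in 12 of them (25.0%), against 13.6% of all promoters. TGANTCA, a loose form of the AP-1 motif in which any middle base counts, was in 10 (20.8%), against 7.81%. These hits include TGAATCA in Ccl9 and TGATTCA in Ccr1l1. GGNNTTTCC, an NF-kB motif, was in 8 (16.7%), against 5.82%. The 48 promoters belong to 41 members, so genes with several entries count more than once. The AP-1 count includes entries of both Ccl27a and Ccl27b, which are near-identical copies. TATAAA was counted at any distance from the start, and hits lay from 16 to 224 bases upstream. No hit overlapped a hit of a different motif. Among the printed sequences, Cxcl1 holds GGNNTTTCC 89 bases upstream on the minus strand and 70 bases upstream on the plus strand of the gene, both inside the capitals. Ccr4 holds TGANTCA 143 bases upstream and Cxcr4 holds TATAAA 30 and 32 bases upstream on opposite strands, in lower case. A match describes letters and is no evidence of binding.

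Around the start site, ligands and receptors had different profiles. In the first 1 kb after the start, EnPGC-1 intervals covered 17.9% of bases over ligand start sites and 16.3% over receptor start sites, against 33.0% over all genes. DMSO intervals covered 2.89% and 0% there, against 10.6%. EnPGC-1 coverage of receptors was highest between 2 and 3 kb after the start, at 28.0%, where DMSO coverage was 3.62% and all genes had 13.4% and 3.57%. Only 14 receptors enter this profile, so a single wide interval moves it.

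**Figure D4:**
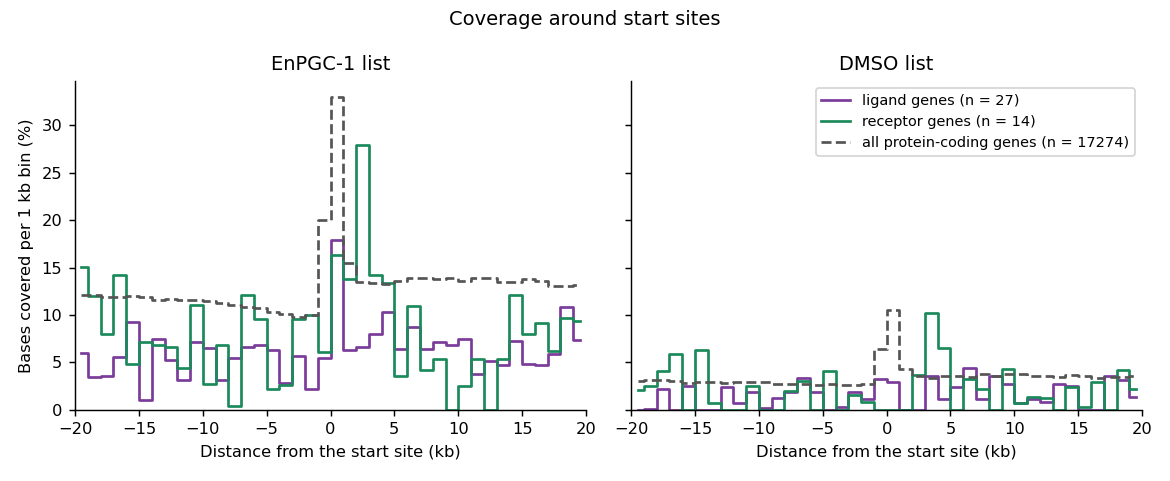
Mean percent of bases covered in bins of 1 kb by distance from the start site, for ligand genes, receptor genes and all genes, in the EnPGC-1 and the DMSO list. All genes peak in the first bin after the start at 33.0% and 10.6%, and receptors peak between 2 and 3 kb at 28.0% in the EnPGC-1 list.

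Genes close to the family were read in windows made in the same way. The chemokines outside the symbol rule were Pf4 and Ppbp, platelet CXC ligands, and Cx3cl1, the membrane-bound CX3C ligand. All 3 held an EnPGC-1 interval and 1 held a DMSO interval. Pf4 and Ppbp lie together, share 4 EnPGC-1 intervals over 2138 bases, and had none in the DMSO list. These intervals are already counted above for the locus of Cxcl5, Cxcl3 and Cxcl15, so Pf4 and Ppbp are no separate instance. The 6 related or atypical receptors all held intervals in both lists, at a median of 18.1% for EnPGC-1 and 3.22% for DMSO. The scavenging receptor Ackr4 had 8628 bases against 376, Ackr2, a scavenger of inflammatory CC chemokines, had 16130 against 2067, and Cx3cr1, the fractalkine receptor of effector T cells, had 14758 against 3545. Of these 6, 5 had at least 4 times as many EnPGC-1 bases, against 43.9% of all genes with a DMSO base.

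The machinery that carries a chemokine signal had higher window coverage than the chemokine genes. Of 29 genes for G proteins, kinases, arrestins, RGS proteins, Rac activation and integrins, 28 held an EnPGC-1 interval and 27 a DMSO interval, at medians of 18.9% and 4.37%. The shares over all genes were 94.6% and 81.5%, and the median windows 8.46% and 2.02%. Of the 27, 14 had at least 4 times as many EnPGC-1 bases, near the 43.9% of all genes. Gnai2, the inhibitory G protein that most chemokine receptors use, had 23006 bases against 4859. Itgal, the alpha chain of the integrin LFA-1, had 18376 against 3011. Rgs2, a regulator that shortens G protein signals, was the only gene of the 29 with more in the DMSO list, with 0 bases against 313. Rgs1 and Itgb1 had EnPGC-1 intervals and no DMSO interval.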

How the data were processed

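H3K27ac ChIP, IgG and input samples of CD8+ T cells were grouped by treatment and antibody as labelled. Per the submitters' processing notes, MACS2 2.2.2.20160309, Bowtie 1.1.2, ChIPseeker 11.16.1, Trimmomatic 0.38 and Picard 0.118 were used, and the build was mm10. The sources used here do not give parameters, the control or any pooling of samples, and nothing says that replicates came from separate animals. The authors deposited 1 headerless peak list per treatment with a score, read from its values as −log10 of a q-value (the lowest was 1.31 in either list, next to 1.30, which is −log10 of 0.05). It ranked and filtered intervals within a list only. Depth per sample is unknown, and depth, enrichment and threshold can all change how many intervals a list holds and how wide they are.

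Entries repeating an interval were combined, 329623 into 253423 for EnPGC-1 and 84538 into 81522 for DMSO, on chromosomes 1 to 19 and X. Genes came from a RefSeq table of GRCm38.p6, which shares mm10 coordinates, and promoters from RefSeq. An interval counted when at least 1 base fell in a window. For equal numbers, EnPGC-1 intervals were kept from the top score down (score at least 4.21, widest first among ties). Shares have exact Clopper-Pearson 95% intervals, which cover counting error only. Coordinates are 1-based. Calculations used Python 3.11.15, numpy 2.4.6 and scipy 1.17.1, and gave 0 wrong values in 200 simulated lists for covered bases, counts and overlaps.

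Of the genes that the symbols select, 2 receptor genes are not reported here. The members, lists and comparisons were chosen with earlier results of these data known. Named were receptors and ligands known from CD8+ T cells, members without an interval, the 3 largest and 3 smallest differences (4 members tie at 0) and all loci with several members. Others, the short-gene background, the motifs printed and the pathway genes given with values were picked after their values were seen. Alternatives were median-score and equal-number filters, flanks of 5 and 50 kb, leaving out intervals under 500 bases, joining within 1000 bases, other overlap rules, and leaving out loci, the last added after seeing the data.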

Additional observations from a re-analysis of the deposited data

How the results depend on the processing

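Of 69 recomputed summary values, 24 were classed as moved and 45 were not. The 45 include sizeable shifts. Members with a DMSO interval went from 30 to 20, both at the median score and with 5 kb flanks. Members with an EnPGC-1 interval went from 49 to 37 without intervals under 500 bases. The receptor ratio went from 4.05 to 5.71 without Ccr4, Ccr10 and Cxcr5. At single loci the direction turned under 2 of the alternatives, as given below. Receptor coverage was 6.80% without its 3 most covered loci, against 7.02% in ligand loci. The ligand loci were not reduced in the same way, so no order of the kinds follows. The limits are 1 list per treatment, unknown depth and an unknown control, so levels depend on the threshold. No paired analysis was possible because each treatment has 1 list, which carries no replicate number, and for the same reason leaving out a replicate gave no value.

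With each list kept at or above its own median score, 6 members had at least 4 times the DMSO bases (13 in the report), EnPGC-1 covered 3.74% of ligand and 6.41% of receptor loci (7.02% and 11.9%), and 39.6% of DMSO intervals overlapped an EnPGC-1 interval (81.1%). With equal numbers of intervals these values were 3 members, 2.88%, 5.06% and 33.7%, the ratios were 1.50 in ligand and 1.72 in receptor loci (3.66 and 4.05), and 12 members had EnPGC-1 intervals and no DMSO interval (19). Of the 37 loci, 25 then had more EnPGC-1 bases and 5 more DMSO bases: Cxcl14, Ccr6, Cxcl1 with Cxcl2, Ccl25, and Ccr1 with Ccr1l1 and Ccr3. With 5 kb flanks 4 members passed the 4 times limit, and Cxcl17 had more DMSO bases. With 50 kb flanks 24 passed it and 11 had no DMSO interval beside an EnPGC-1 one. Leaving out intervals under 500 bases left 18 members with a DMSO interval (30), 6 past the 4 times limit, and EnPGC-1 coverage of 4.70% and 9.05%. Joining intervals within 1000 bases gave 8.84% and 14.9%. Requiring at least 50% of a DMSO interval to be covered gave an overlap of 68.4%, and requiring that of both intervals 37.9%. Without Ccl21b, Ccl21d and Ccl27b ligand coverage was 8.20%, and without Ccr10, Ccr4 and Cxcr5 receptor coverage was 6.80%. The causes of these shifts were not tested beyond the construction of each alternative.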
